A study of Mus musculus with 36 samples.

Results

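Early thymic progenitors sorted for high Flt3 (labelled ETPFlt3hi, here ETP) were compared with blood-forming stem cells (labelled LSKFlt3-CD48-CD150+, here HSC) on 12 of the 36 mouse arrays of the study. The members were taken by sample title, 6 ETP arrays and 6 HSC arrays. Every array is labelled C57BL6, both sexes, normal development and an age of 1 week, with no treatment or allele named. Arrays 1 to 3 of each population belong to a first set of 15 arrays, whose labels add that each sample pools several mice and that ETP came from thymus and HSC from bone marrow. Arrays 4 to 6 belong to a second set of 21 arrays, whose labels give neither. The series text calls the arrays biological replicates, and beyond that no label ties an array to separate animals. Levels are log2 values, so a difference of 1 is 2-fold. The median of an array lay at 5.15 to 5.22 for set 1 and was higher, at 5.86 to 5.94, for set 2. Levels were therefore compared within a set, and the difference reported is the mean of the 2 within-set differences, ETP minus HSC. Marrow LSKFlt3hi IL7R+ cells (here LSK, labelled thymic seeding progenitors, 3 arrays in each set) and adult ETP (2 arrays of set 2, which also carry the 1 week age label) are given beside some genes. LSK was gated on Flt3 and IL7R, so its Flt3 and Il7r levels follow its gate.

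Stem cells of the marrow renew themselves, are mostly quiescent in the adult and hold the programme for all blood lineages. Their descendants gain Flt3, lose the capacity to make platelets and red cells, and turn on lymphoid genes such as Il7r and the recombination genes. Some of these progenitors enter the thymus, where Notch ligands on the epithelium drive the T cell fate. ETP are the earliest of the resident thymic progenitors, before T cell receptor rearrangement, and are known to keep some myeloid and natural killer potential. In such a bulk measurement, fewer cells of a type and less RNA per cell cannot be told apart.

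A gene counted as called at an adjusted p (limma, Benjamini-Hochberg) under 0.05 together with a difference of 2-fold or more. Over both sets 1596 of 18193 genes were called (8.77%), 673 of them higher in ETP (3.7%) and 923 lower (5.07%), and the median difference over all genes was 0.03. Within set 1 alone 1790 genes were called (9.84%) and within set 2 alone 1505 (8.27%). The sets shared 1051 calls of the same direction, 58.7% of the set 1 calls and 69.8% of those of set 2, and 1 gene, Btnl9, was called in opposite directions. Among the 1596 calls, 1347 (84.4%) had ETP and HSC arrays that did not overlap in either set. Of all genes, called or not, 10% had such arrays with ETP higher and 7.99% with ETP lower. Between ETP and LSK 1.74% of genes were called. ETP arrays resembled each other more than HSC arrays did. Within a set the correlation between arrays over all genes was 0.987 to 0.990 for ETP and 0.968 to 0.978 for HSC.

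**Figure D1:**
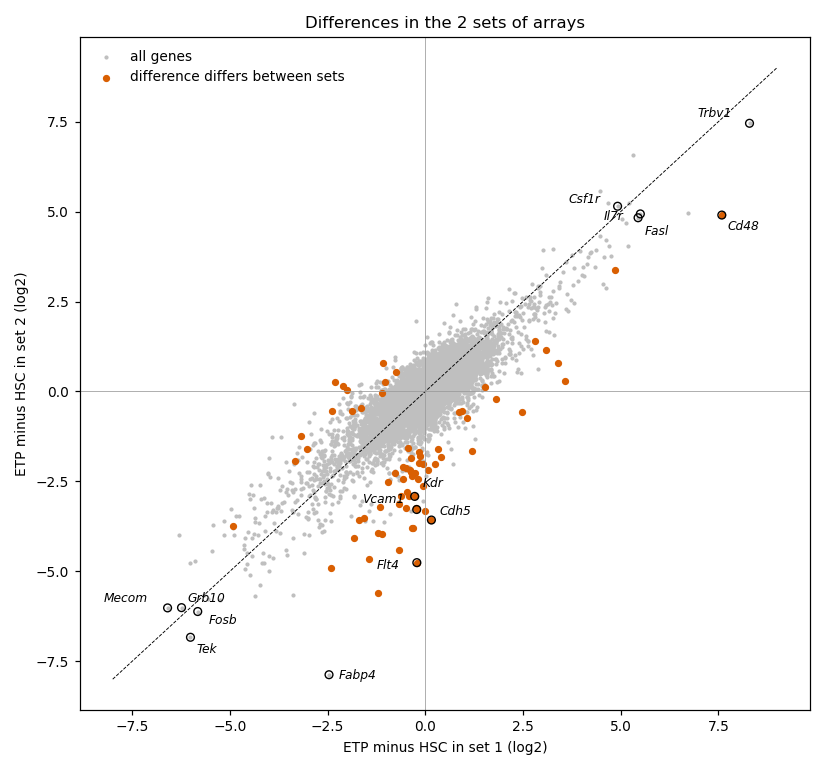
Each point is a gene, with its ETP minus HSC difference in set 1 on the x axis and in set 2 on the y axis (both log2), and the dashed line marks equal differences. Fasl, Il7r and Csf1r lie near the line at the upper right and Tek, Mecom and Grb10 near it at the lower left, while the orange points, 71 genes whose difference differed between the sets, gather below it with Flt4 at -0.22 and -4.76.

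The genes of the sorting gates followed the labels, which is a description because the sort used their proteins. Flt3, the receptor tyrosine kinase in the gate of both populations, stood at 9.53, 9.88 and 9.19 on the set 1 ETP arrays and at 5.90, 5.08 and 5.22 on the set 1 HSC arrays. In set 2 it was 10.35, 10.42 and 10.36 in ETP and 7.54, 6.84 and 6.09 in HSC. No HSC array reached an ETP array of its set. Cd48, excluded from the HSC gate, was 3.04, 3.81 and 3.35 on HSC arrays 1 to 3 but 4.88, 7.47 and 5.23 on arrays 4 to 6, against 10.62 to 11.09 over the 6 ETP arrays. HSC array 5 was therefore the highest of the HSC arrays for this excluded marker. Slamf1, which encodes CD150, ran from 7.44 to 9.11 in HSC and from 4.13 to 4.88 in ETP. Kit differed little, by -0.62 ± 0.23 (SE).

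Of the other genes that mark these cells, Fasl and Ccr9 were high in ETP and Tek and Mecom in HSC, in both sets. Fasl, the ligand of the death receptor Fas carried by killer lymphocytes, was 8.47, 8.66 and 8.56 in set 1 ETP and 3.38, 2.92 and 3.05 in set 1 HSC. In set 2 it was 8.07, 8.55 and 8.55 in ETP against 3.56, 3.91 and 3.21 in HSC. The difference of 5.14 ± 0.21 (SE, adjusted p = 1.57e-17, limma) was almost as large against LSK, at 4.87, since LSK means were 3.49 and 3.72. The 2 adult ETP arrays read 6.40 and 7.20, below the 3 ETP arrays of their set.

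Ccr9, the receptor for the thymic chemokine CCL25, was 9.45, 9.66 and 8.68 in set 1 ETP and 6.94, 4.67 and 4.87 in HSC. In set 2 the ETP values were 8.78, 9.43 and 9.57 and the HSC values 5.54, 5.78 and 5.09. The arrays did not overlap, although HSC array 1 lay above its neighbours, and the difference was 3.78 ± 0.32 (SE). Tek, the angiopoietin receptor Tie2 of stem cells and endothelium, was 9.03, 9.57 and 8.89 on HSC arrays 1 to 3 and 10.18, 10.46 and 9.72 on arrays 4 to 6. All 6 ETP arrays lay between 3.07 and 3.37, a fall of 6.42 on the log2 scale (SE 0.25), which was the largest fall among the called genes with non-overlapping arrays. Mecom, which encodes the stem cell factor EVI1, ran from 10.02 to 10.61 in HSC and from 3.50 to 4.24 in ETP, a difference of -6.31 ± 0.22. LSK already had low levels of both, with means of 3.71 and 3.37 for Tek and 5.89 and 4.50 for Mecom.

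**Figure D2:**
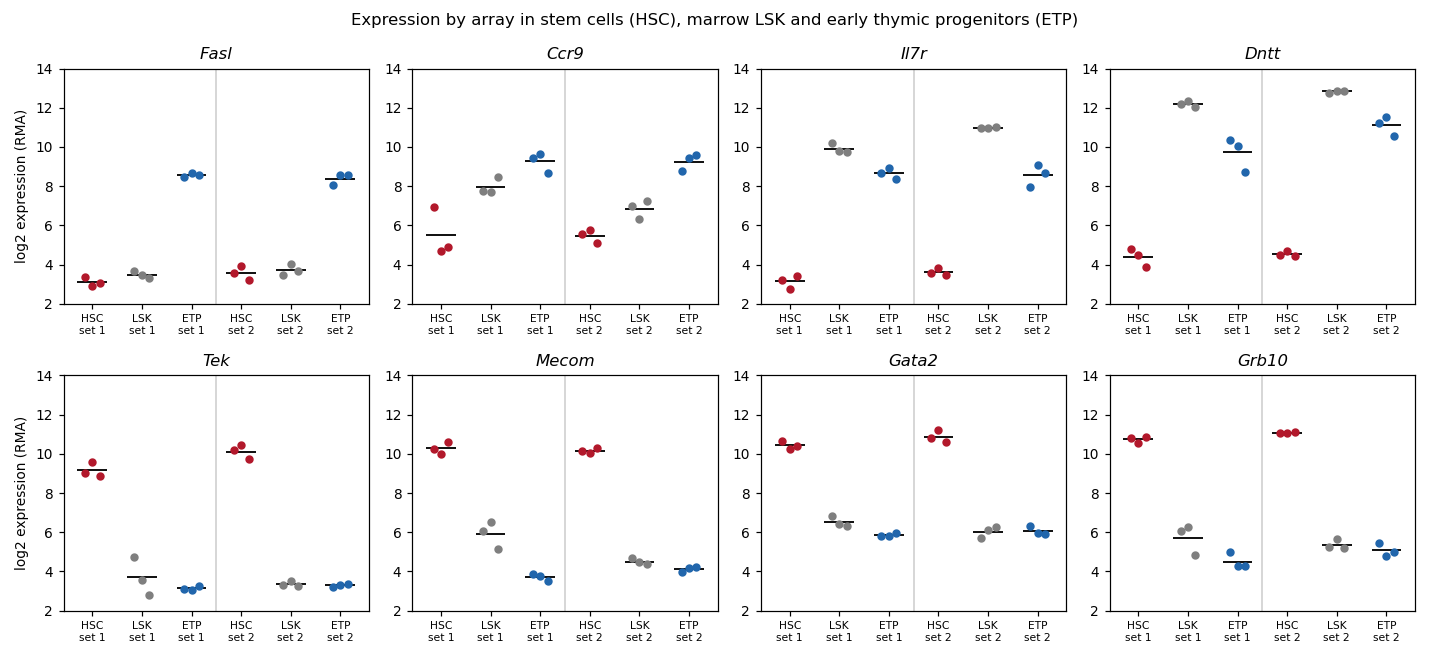
Points are single arrays and bars the mean of 3 arrays, with log2 expression on the y axis and HSC (red), LSK (grey) and ETP (blue) on the x axis, set 1 left and set 2 right of the line. Fasl is high in ETP alone of these 3 populations, Il7r and Dntt are high in LSK and ETP, and Tek, Gata2 and Grb10 are high in HSC alone.

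About as many early lymphoid genes rose as were not called. Of 17 measured, 9 were called higher in ETP, among them the gate gene Flt3, and 0 lower, against 3.7% and 5.07% of all genes. The list median was 1.12. Dntt, the polymerase that adds bases at receptor gene joints, was 10.34, 10.07 and 8.75 in set 1 ETP and 11.21, 11.51 and 10.58 in set 2 ETP. HSC arrays ran from 3.89 to 4.80. The difference was 5.95 ± 0.21 (SE, adjusted p = 6.17e-19, limma), and LSK had still more, at 12.18 and 12.83. Il7r, the receptor for the lymphoid survival factor interleukin 7, was 8.66, 8.93 and 8.35 in set 1 ETP and 7.94, 9.08 and 8.65 in set 2 ETP, against 2.77 to 3.83 in HSC. It rose by 5.22 ± 0.16.

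The recombination genes were higher in ETP than in HSC and highest in LSK. Rag2 rose by 3.75 ± 0.35, but HSC array 6 read 7.84 where the other 5 HSC arrays read 2.94 to 4.45. Rag1 rose by 2.66 ± 0.16, from 2.63 to 3.16 up to 5.86 to 6.58 in set 1 and from 4.42 to 5.25 up to 6.81 to 7.05 in set 2. Rag1 in ETP was nevertheless below LSK, whose means were 9.48 and 11.75, with an ETP minus LSK difference of -4.08 ± 0.16. The chromatin organiser Satb1 (3.17), the receptor Notch1 (2.39), Cd27 (1.43) and Ly6d (1.12) were also called higher. Ikzf1, which encodes Ikaros, had a difference of 0.94 (adjusted p = 7.76e-08) and missed the fold threshold.

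Most T lineage genes proper were not called. Of 15 T lineage transcription factors, 2 were called higher, 1 lower and 12 not, with a median of 0.09. Of all genes, 3.7% were called higher and 5.07% lower. Runx3, a Runt factor of cytotoxic lymphocytes, stood at 10.19, 10.05 and 10.16 in set 1 ETP against 5.55, 7.63 and 6.99 in HSC, and at 9.19, 9.82 and 9.91 against 6.75, 6.61 and 6.93 in set 2. It rose by 3.14 ± 0.22, and LSK at 9.77 and 9.40 lay close to ETP. Another probe set naming Runx3 differed by 0.59, under the fold threshold. Tox, an HMG box factor needed for T and innate lymphoid development, rose by 2.20 ± 0.25, and here LSK at 7.25 and 7.53 lay near HSC, with ETP 1.76 above LSK (adjusted p = 1.92e-05). Id3, an inhibitor of E proteins, was called lower, by 1.16. Gata3 and Bcl11b, later T lineage regulators, had differences of 0.41 ± 0.25 and 0.09 ± 0.16 and were not called.

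Of 22 T cell receptor and signalling genes, 3 were called higher and 2 lower (median 0.20), against 3.7% and 5.07% of all genes. Cd7, a surface protein of early T and natural killer cells, rose by 2.03 ± 0.13, and in ETP it was also 1.90 above LSK. Cd5 (1.21) and the adaptor Skap1 (1.12) were called higher and the kinase gene Prkcq lower (-1.40). The CD3 chain genes Cd3e (-0.02) and Cd3g (0.37), the co-receptors Cd4 (-0.28) and Cd8a (0.02), and Ptcra (0.12) were not called. Cd28 was called lower at adjusted p = 0.0488, but HSC array 1 at 2.92 lay below every ETP array and the call was lost when single arrays of either population were left out, with differences from -0.97 to -1.50. A probe set naming the receptor beta segment Trbv1 had the largest rise of all, 7.88 ± 0.16, from 3.42 to 4.79 in HSC up to 12.04 to 12.40 in ETP. Its name marks it as one whose probes may match several transcripts, and LSK means were 9.10 and 8.83.

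Among 19 Notch receptors and targets, 2 were called higher and 1 lower (median 0.07), against 3.7% and 5.07% of all genes. Notch1, the receptor that starts the T cell programme, was 10.91, 10.96 and 11.09 in set 1 ETP against 8.15, 8.37 and 8.18 in HSC, and 10.97, 10.96 and 10.91 against 8.53, 8.99 and 9.24 in set 2. The rise of 2.39 ± 0.13 put ETP level with LSK, which had 10.90 and 10.69. Myc, a growth regulator that Notch1 drives in T cell precursors, rose by 1.06 ± 0.11. This lay close to the fold threshold, and Myc was under it in set 1 alone (0.93) and after quantile normalization (0.97). The direct targets Nrarp (0.90), Il2ra (0.91) and Dtx1 (0.88) had adjusted p of 0.00119, 0.000225 and 0.00866 and missed the fold threshold, and Hes1 (0.47) had an adjusted p of 0.078. Against LSK, Nrarp and Il2ra were called higher in ETP, by 1.32 and 1.09, while Dtx1 differed by -0.10. Hey1 was called lower (-1.68).

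Homing and adhesion genes split, with 6 of 17 called higher and 3 lower (median 0.31), against 3.7% and 5.07% of all genes. After Ccr9, the largest rise was that of Itgal, the alpha chain of the integrin LFA-1, from 5.36 to 7.62 in HSC up to 9.45 to 9.84 in ETP. Its difference was 2.95 ± 0.20. Ccr7 (1.62), which with Ccr9 serves thymus entry, Itgb7 (1.26), Cxcr3 (1.11) and Selplg (1.03), the P-selectin ligand, were called higher. For Itgb7, HSC array 1 at 9.23 lay above every set 1 ETP array, and LSK at 6.88 to 7.25 lay below ETP on all 6 arrays. S1pr1, the receptor by which lymphocytes leave tissues for blood, fell by 3.48 on the log2 scale (SE 0.26), from 7.07 to 9.11 in HSC to 4.31 to 5.62 in ETP. Klf2, which drives S1pr1, fell by 3.08 (SE 0.37), and Vcam1, described with the vessel genes, was the other member called lower.

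Cytotoxic and innate lymphoid genes included 9 called higher of 19 and 0 called lower (median 0.32), against 3.7% and 5.07% of all genes. After Fasl, Nkg7, a granule protein of killer cells, was 8.94, 8.93 and 9.09 in set 1 ETP against 5.15, 5.19 and 4.91 in HSC, and 8.37, 8.49 and 8.47 against 5.58, 5.34 and 5.22 in set 2. The difference was 3.48 ± 0.14. LSK lay between them at 7.29 and 7.35. The interleukin 18 receptor chain Il18r1 (2.44), the signalling adaptor Tyrobp (2.41), Klrd1 (1.62), the granzyme Gzma (1.59), Ctsw (1.25), Nfil3 (1.19) and Il18rap (1.03) were called higher. The master regulators Tbx21 (0.23) and Eomes (0.24), perforin (Prf1, 0.14), Gzmb (0.18) and the natural killer receptor Ncr1 (0.12) were not. Gzma rose from 3.04 to 3.66 in HSC only to 3.89 to 6.18 in ETP, with a spread among ETP arrays wider than that of Nkg7.

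Runx proteins bind TGTGGT, and promoters of the cytotoxic list were searched for it on both strands, from 250 bases before to 50 after the start of each gene (RefSeq, GRCm38.p6). It was present in 9 of 14 promoters of the list (64.3%), against 13.7% of 14452 measured genes with a promoter in the table. It did not follow the calls, being in 3 of 6 called members and 6 of 8 not called, and the Fasl promoter lacks it. The promoters of Nkg7 (chr7:43436888-43437187, plus strand) and Gzma (chr13:113100932-113101231, minus strand) are shown because these are the largest risers of the list that hold it, with the match in capitals, here on the strand opposite to the gene.
Nkg7: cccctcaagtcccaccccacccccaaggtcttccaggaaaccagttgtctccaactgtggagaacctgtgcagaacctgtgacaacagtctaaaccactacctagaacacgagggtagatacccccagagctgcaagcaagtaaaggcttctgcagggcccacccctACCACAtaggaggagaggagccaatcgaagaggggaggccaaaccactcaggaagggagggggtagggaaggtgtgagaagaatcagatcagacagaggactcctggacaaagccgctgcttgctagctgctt
Gzma: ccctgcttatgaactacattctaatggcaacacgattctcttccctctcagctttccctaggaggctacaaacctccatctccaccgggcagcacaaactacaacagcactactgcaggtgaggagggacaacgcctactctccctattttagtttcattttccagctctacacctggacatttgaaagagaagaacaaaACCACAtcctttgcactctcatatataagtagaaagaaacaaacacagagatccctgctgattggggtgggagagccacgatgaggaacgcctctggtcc

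Myeloid and B lineage genes were called in both directions. Of 19 myeloid progenitor genes, 4 were called higher and 3 lower (median -0.15), against 3.7% and 5.07% of all genes. Csf1r, the receptor for the macrophage growth factor M-CSF, was 9.21, 9.70 and 8.62 in set 1 ETP against 6.65, 3.0 and 3.11 in HSC, and 8.62, 8.82 and 8.83 against 3.69, 3.55 and 3.58 in set 2. It rose by 5.04 ± 0.44, with HSC array 1 apart from the other HSC arrays. Other probe sets naming Csf1r rose less, by 1.95 and 0.64. Mpo, a granule enzyme of myeloid progenitors, was 10.37 or more on all 6 ETP arrays, while HSC arrays 1 to 6 read 3.83, 9.55, 4.53, 7.40, 8.73 and 4.44. Its difference of 4.26 ± 0.66 therefore rests on a scattered HSC group. Cd33 rose by 4.15 ± 0.18 with HSC at 3.72 to 5.68 and ETP at 8.37 to 9.40, and Ly86 by 1.04. The lysozyme gene Lyz2 (-2.48), the protease gene Prtn3 (-2.36) and the transcription factor Cebpb (-2.20) were called lower. Cebpa (0.01), Spi1 (0.01) and Elane (-0.15) were not called.

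Of 18 B lineage genes, 3 were called higher and 2 lower (median 0.01), against 3.7% and 5.07% of all genes. Rag1 and Bst1 (1.89) rose. Ighm rose by 3.62 ± 0.19 from 5.55 to 6.26 in HSC to 8.88 or more on all 6 ETP arrays, a gene with 11 probe sets whose mean gave 0.58, under the fold threshold. The B cell master regulators Ebf1 (-0.18) and Pax5 (0.01) were not called. In LSK, by contrast, Ebf1 was 3.77 higher than in ETP, with LSK arrays at 7.77 to 9.73. Foxo1 (-1.43) and Bank1 (-1.07) were called lower. Of 13 dendritic and MHC class II genes, 6 were called higher and 0 lower (median 0.45), against 3.7% and 5.07% of all genes. Those called higher included H2-DMa (1.57), H2-Ab1 (1.47) and the invariant chain Cd74 (1.35). Other probe sets naming H2-Ab1 differed by 0.45 and 0.71, under the fold threshold. ETP array 3 at 5.75 lay within the set 1 HSC range for Cd74, and Ciita, the class II activator, had a difference of 0.06. Flt3 is also in this list.

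Most stem cell transcription factors fell. Of 22 measured, 14 were called lower and 0 higher (list median -1.65), against 5.07% and 3.7% of all genes. Hlf, a bZIP factor of stem cells, was 10.79, 10.83 and 10.74 in set 1 HSC and 11.11, 10.84 and 11.30 in set 2, against 5.91, 7.47 and 6.31 and then 5.71, 5.52 and 5.83 in ETP. It fell by 4.81 (SE 0.44), and LSK was close to ETP at 6.98 and 5.23. Gata2, which maintains stem cells and mast cells, ran from 10.24 to 11.20 in HSC and from 5.82 to 6.33 in ETP, a difference of -4.69 ± 0.16. Prdm16 (-4.13), Hoxb5 (-3.60), Lmo2 (-2.92), Tal1 (-2.69), Hoxa10 (-2.66) and Meis1 (-1.70) were called lower.

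Some factors shared by stem and progenitor cells stayed high. Erg had a difference of -0.84 with HSC at 11.48 to 11.90 and ETP at 10.45 to 11.01, short of the fold threshold. Hoxa9 was slightly higher in ETP (0.53, adjusted p = 0.0181), so the Hox genes of this list did not share a direction. Lyl1 (0.36) and Mycn (0.41) were not called.

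Of 20 stem cell surface and signalling genes, 13 were called lower and 1 higher (median -2.28), against 5.07% and 3.7% of all genes. The guanine exchange factor gene Fgd5, used to mark stem cells, fell by 5.39 on the log2 scale (SE 0.19), from 8.13 to 9.30 in HSC to 2.70 to 3.91 in ETP. Trpc6 (-4.51), the protein C receptor Procr (-4.28), the adhesion molecule Esam (-4.26), Gucy1a1 (-3.51), Tgm2 (-3.22) and Socs2 (-2.57) were also called lower. Cd34, a sialomucin that stem cells of adult mice lose and progenitors carry, was the member called higher, by 2.09 ± 0.15, with HSC at 7.69 to 8.95 and ETP at 10.27 to 10.71.

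Most imprinted growth-control genes, which are expressed from 1 parental copy, fell too. Of 16 measured, 10 were called lower and 0 higher (median -1.62), against 5.07% and 3.7% of all genes, and 16 of 16 differences were below 0. Grb10, an adaptor that restrains insulin and growth factor signalling, was 10.80, 10.58 and 10.86 in set 1 HSC and 11.08, 11.06 and 11.11 in set 2. ETP read 5.01, 4.27 and 4.26, then 5.45, 4.78 and 4.99, a fall of 6.13 (SE 0.26). Plagl1 (-4.81), Ndn (-3.64), the growth factor Igf2 (-3.19), the noncoding RNA Meg3 (-3.10), the CDK inhibitor Cdkn1c (-2.41) and Peg3 (-2.38) followed. LSK means were near the ETP levels for Grb10 (5.73 and 5.36), Igf2 (3.89 and 4.42) and Cdkn1c (4.23 and 4.83), and higher for Plagl1 (8.10 and 6.01). Mest was called lower (-1.06), but by 2.18 in set 2 and not in set 1, where the difference was 0.06.

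Of 19 platelet and red cell genes, 4 were called lower and 1 higher (median -0.50), against 5.07% and 3.7% of all genes. For 9 of 19 all ETP arrays lay below the HSC arrays of their set, against 7.99% of all genes. Beside Tal1, the members called lower were the platelet chemokine Pf4 (-2.30), the erythropoietin receptor Epor (-2.06) and the carbonic anhydrase Car2 (-1.42). The member called higher was Plek (1.25). Gata1 (-0.59) and Itga2b (-0.60) had adjusted p of 0.0127 and 0.000165 and missed the fold threshold.

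**Figure D3:**
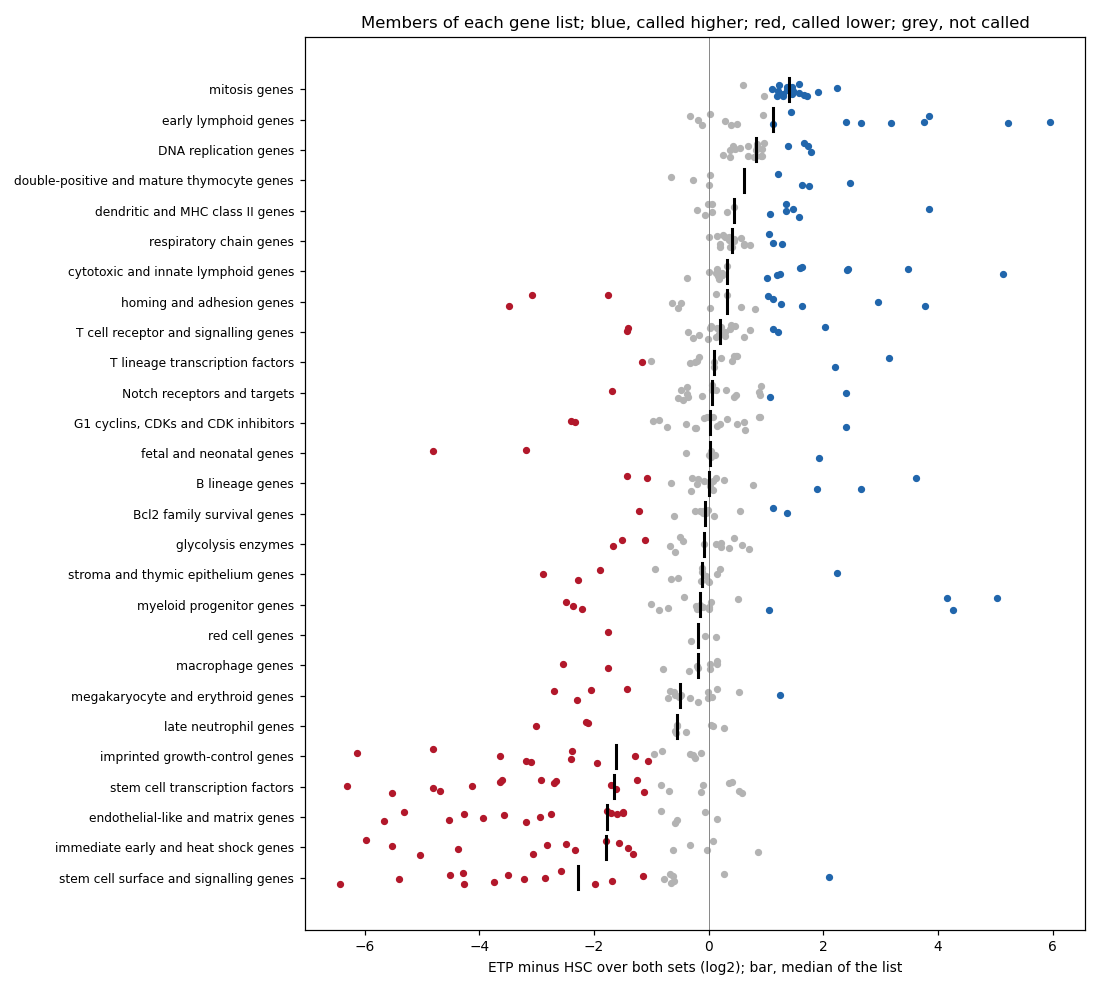
Each point is a measured member of a gene list at its ETP minus HSC difference over both sets (x axis, log2), blue if called higher, red if called lower and grey if not called, and the black bar is the list median. The medians run from -2.28 for stem cell surface and signalling genes to 1.40 for mitosis genes.

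Genes of basement membrane and endothelium were among the largest falls, and the 2 sets of HSC arrays differed in them. Of 19 endothelial-like and matrix genes, 14 were called lower and 0 higher (median -1.77), against 5.07% and 3.7% of all genes. The list median was -1.17 in set 1 and -3.10 in set 2. One group was high on all 6 HSC arrays. Col4a1, a type IV collagen chain, was 9.48, 10.09 and 9.99 in set 1 HSC and 12.11, 11.99 and 11.46 in set 2, against 4.11 to 4.48 and 6.04 to 6.18 in ETP, a difference of -5.66 ± 0.24. Col4a2 (-5.31), Emcn (-4.26), the clotting factor gene Vwf (-3.94) and the receptor gene Tie1 (-3.57) were also lower in ETP in both sets. Tie1 read 7.16, 8.0 and 7.57, then 7.39, 8.13 and 6.79 in HSC, against 3.46 to 3.62 and 4.27 to 4.39 in ETP.

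Another group was high on HSC arrays 4 to 6 alone. Cdh5, the cadherin of endothelial junctions, read 3.28, 3.04 and 3.76 on HSC arrays 1 to 3 and 7.52, 9.42 and 7.43 on arrays 4 to 6. ETP read 3.58, 3.41 and 3.55, then 4.60, 4.41 and 4.63. The difference was 0.16 in set 1 and -3.57 in set 2, and these differed (adjusted p = 1.14e-05 for the difference between sets). Flt4, the receptor VEGFR3 of lymphatic and sinusoidal endothelium, was 5.72, 5.68 and 5.05, then 9.68, 10.76 and 9.29 in HSC, and 5.05 to 5.59 over the 6 ETP arrays. Vcam1, an adhesion molecule of endothelium and macrophages, was 4.24 to 4.52 and then 7.67 to 8.05 in HSC, and 4.0 to 4.68 in ETP. The VEGF receptor gene Kdr differed by -0.27 in set 1 and -2.92 in set 2. Of 4 probe sets naming Adamts5, an extracellular protease, 1 differed by 0.22 in set 1 and -4.50 in set 2 (adjusted p = 5.94e-10 for the difference between sets), while the brightest differed by -0.30 and -1.43 (adjusted p = 0.101). The potassium channel subunit gene Abcc9 was high on HSC array 1 as well (7.47), and differed by -1.21 and -5.61.

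In the endothelial-like and matrix list, 11 of 19 were called lower in set 1 and 14 in set 2, with 5 called for the difference between sets. A list of 16 mature vessel genes was chosen after these values were seen. Its counts were partly fixed by that choice, so they describe these arrays and do not measure an extent. In set 1, 2 of 16 were called lower (median -0.44) and in set 2, 14 of 16 (median -2.67), with 11 called for the difference between sets. Its mean level was 5.59, 5.17 and 5.32 on HSC arrays 1 to 3 and 7.97, 8.74 and 7.78 on arrays 4 to 6, against 4.69 to 4.79 and 5.31 to 5.36 in ETP. Fabp4, a fatty acid carrier of capillaries and fat cells, was 8.38, 3.0 and 6.66, then 11.54, 12.10 and 11.72 in HSC. Lyve1 (-0.06) and Egfl7 (0.05) were the members not called. Over all genes, 71 of 18193 (0.39%) differed between the sets by these rules, 57 of them (0.313%) more negative in set 2. With the 12 ETP and HSC arrays alone in the fit, 3 did, namely Flt4, Vcam1 and Lpl, and 1220 had an unadjusted p under 0.05. The basement membrane gene Nid1 was among the 57, with -0.62 in set 1 and -2.91 in set 2 (adjusted p = 0.0108 for the difference between sets). Tek (-6.01 and -6.83), Sparc (-3.39 and -5.67) and Igf2 (-2.69 and -3.69) did not pass that test, with adjusted p of 0.811, 0.411 and 0.604, nor did Col4a2 (-5.90 and -4.72) and Mecom (-6.60 and -6.02), at 0.17 and 0.895. Vessel genes were not all level in set 1, where Sox18 differed by -1.57 and Cavin2 by -1.83. The part of vessel transcripts in the falls of Tek, Sparc, Col4a1 and the like was not tested in either set.

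Markers of other marrow cells were scattered over single HSC arrays. The bone collagen gene Col1a1 read 11.21 on HSC array 2 and 11.77 on array 4 and 4.61 to 6.18 on the other 4, and Col1a2 11.23 and 10.92 there. Cxcl12, a chemokine of marrow stroma, was 10.48 on HSC array 4. The call of Col1a1 (-2.28, adjusted p = 0.0395) ended without HSC arrays 2 and 4, at -0.25. Of the 15 stroma and thymic epithelium genes, 3 were called lower and 1 higher (median -0.12), against 5.07% and 3.7% of all genes. The mean of the list ran from 4.86 to 5.77 on set 1 HSC arrays and from 5.65 to 6.94 in set 2. In ETP it was 4.75 to 4.84 and 5.50 to 5.72. The member called higher was the PDGF receptor Pdgfrb (2.24), with HSC at 6.62 to 7.77, ETP at 8.99 to 9.58 and adult ETP at 9.09 and 9.56. The thymic epithelial genes Foxn1 (0.01) and Psmb11 (0.20) were not called.

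The neutrophil gene S100a9 was 9.96, 9.29, 5.1, 8.20, 10.73 and 5.78 on HSC arrays 1 to 6, and 4.74 to 5.58 in ETP. Over all genes, 5.07% were called lower and 3.7% higher. Of 11 late neutrophil genes 3 were called lower, S100a9 (-3.01), Stfa3 (-2.15) and S100a8 (-2.11), and 0 higher (median -0.55). Without HSC arrays 1, 2, 4 and 5 these were -0.28, -0.04 and -0.09 and 0 of 11 were called, with a list median of 0.05. Their mean level was 3.81 to 5.25 on set 1 HSC arrays and 4.69 to 6.87 in set 2, against 3.79 to 3.94 and 4.67 to 4.82 in ETP. Of 10 macrophage genes 2 were called lower, Mrc1 (-2.53) and Vcam1, both through set 2. The complement genes C1qa (0.02), C1qb (-0.19) and C1qc (-0.18) were not called. Of 4 red cell genes 1 was called lower, Slc4a1 (-1.75), which was highest on HSC arrays 2, 4 and 5. Without HSC arrays 2 and 4 it was -1.35 (adjusted p = 0.0978) and not called. Of 8 double-positive and mature thymocyte genes, 4 were called higher (median 0.61), Arpp21 (2.47), Cd69 (1.76), Ccr7 and Cd5. Arpp21 and Cd69 were still higher in LSK, by 1.25 and 3.03, and Cd4, Cd8a and Cd8b1 (0.00) were not called.

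**Figure D4:**
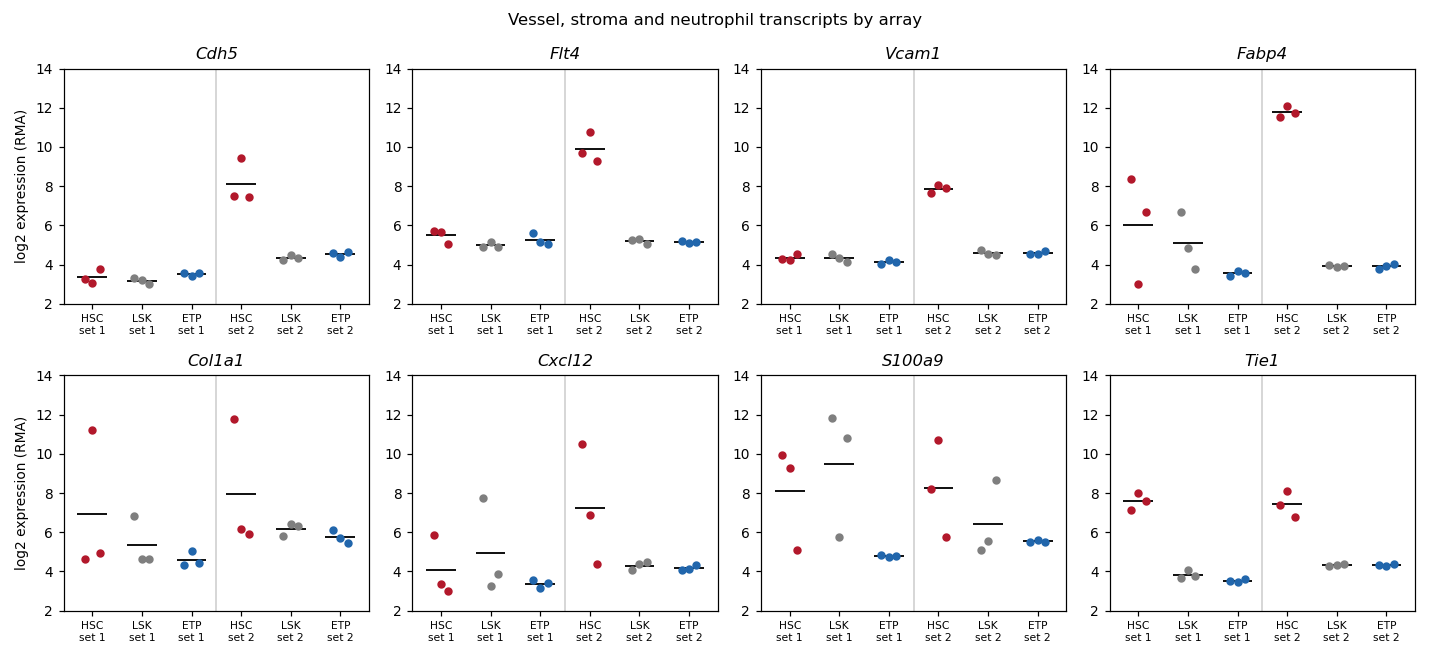
Points are single arrays and bars the mean of 3 arrays, with log2 expression on the y axis and populations by set on the x axis. Cdh5, Flt4 and Vcam1 are high on the 3 HSC arrays of set 2 alone, Tie1 is high on all 6 HSC arrays, and Col1a1 and S100a9 are high on some HSC arrays of either set.

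Immediate early genes, which cells switch on within minutes of a stimulus or of handling, were mostly lower in ETP. Of 17 immediate early and heat shock genes, 12 were called lower and 0 higher (median -1.80), against 5.07% and 3.7% of all genes. Fosb was 10.35, 10.23 and 10.70, then 11.22, 11.20 and 9.03 in HSC, against 4.13, 3.19 and 6.50, then 4.16, 4.62 and 4.31 in ETP. Egr1, also a factor of stem cell quiescence and so in the stem cell list, fell by 5.52 (SE 0.41), Fos by 5.02 (SE 0.60), Nr4a1 by 4.36 (SE 0.70) and Jun by 2.34 (SE 0.36). ETP array 3 and HSC array 6 lay towards the other population, and for Nr4a1 HSC array 6 read 4.82, within the set 2 ETP range. LSK levels differed between the sets. In set 1 the mean of the list was 8.77 to 9.64 in LSK, overlapping HSC at 9.14 to 9.96 and above ETP at 6.94 to 7.95. In set 2 it was 7.75 to 8.19 in LSK, between HSC at 8.36 to 9.95 and ETP at 6.94 to 7.33. The heat shock genes Hspa1a (0.08), Hspa8 (-0.02) and Dnajb1 (-0.32) were not called.

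Most mitosis genes rose in ETP, and their list had the highest share of called members. Of 21 mitosis genes, 19 were called higher and 0 lower (median 1.40), against 3.7% and 5.07% of all genes. For 20 of 21 all ETP arrays lay above the HSC arrays of their set, against 10% of all genes. Bub1, a spindle checkpoint kinase, was 5.49, 5.88 and 5.95 in set 1 HSC against 8.17, 8.23 and 8.16 in ETP, and 5.64, 6.83 and 5.39 against 7.89, 8.32 and 7.87 in set 2. It rose by 2.24 ± 0.23. Aurkb (1.90), the ubiquitin carrier Ube2c (1.72), the topoisomerase Top2a (1.66), cyclin A2 (Ccna2, 1.57) and Cenpf (1.57) followed. Mki67 (0.60) and Plk1 (0.97) had adjusted p of 2.71e-07 and 0.000177 and missed the fold threshold. Mki67 already stood at 11.64 to 12.06 in HSC. LSK had mitosis gene levels at or above those of ETP, with list means of 9.54 to 10.10 over its 6 arrays and 9.29 to 9.68 in ETP, against 7.76 to 8.43 in HSC.

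Many mitosis genes share a promoter arrangement, a cell cycle homology region (CHR, here TTTGAA) near the start with CCAAT boxes before it, through which they are held off outside division. In the same 300 base window, both were present on either strand in 13 of 17 mitosis genes with a promoter in the table (76.5%), against 5.37% of measured genes. They were together in 12.7% of 526 called higher and 4.02% of 721 called lower. Within the list the pair did not follow the calls. Birc5, Bub1, Cenpe and Nusap1 lacked it in this window and were called higher, while Mki67 and Plk1 held it and were not called. The promoters of Ube2c (chr2:164769679-164769978, plus strand), Top2a (chr11:99024140-99024439, minus strand) and Cenpf (chr1:189688037-189688336, minus strand), the largest risers that hold both, are shown 5′ to 3′ on the strand of the gene. Capitals mark TTTGAA or its reverse TTCAAA and CCAAT or its reverse ATTGG. In Ube2c a CCAAT and an ATTGG overlap.
Ube2c: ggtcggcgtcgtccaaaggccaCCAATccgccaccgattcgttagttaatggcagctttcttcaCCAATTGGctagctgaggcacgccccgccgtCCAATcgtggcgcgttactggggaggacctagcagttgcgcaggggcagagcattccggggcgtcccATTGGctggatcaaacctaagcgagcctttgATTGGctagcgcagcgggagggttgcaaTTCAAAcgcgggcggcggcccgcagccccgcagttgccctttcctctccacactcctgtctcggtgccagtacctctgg
Top2a: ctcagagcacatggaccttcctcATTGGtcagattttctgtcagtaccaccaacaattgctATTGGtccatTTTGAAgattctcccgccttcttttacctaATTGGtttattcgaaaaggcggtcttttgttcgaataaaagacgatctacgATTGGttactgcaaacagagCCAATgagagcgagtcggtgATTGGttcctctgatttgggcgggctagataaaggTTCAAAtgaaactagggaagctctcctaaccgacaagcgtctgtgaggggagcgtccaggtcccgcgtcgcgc
Cenpf: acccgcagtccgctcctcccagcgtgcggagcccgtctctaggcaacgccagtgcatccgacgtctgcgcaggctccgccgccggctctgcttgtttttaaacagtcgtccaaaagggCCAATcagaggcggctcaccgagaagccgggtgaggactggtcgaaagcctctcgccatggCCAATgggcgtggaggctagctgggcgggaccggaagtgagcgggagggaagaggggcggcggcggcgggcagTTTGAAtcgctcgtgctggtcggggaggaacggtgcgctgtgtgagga
Counted from the start of the gene, the CHR begins at -29 in Ube2c, at -179 and -23 in Top2a and at 3 in Cenpf. A match is a description of these letters and no measure of binding.

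DNA replication genes rose, most of them by less than 2-fold. All 21 measured differences were above 0 (median 0.83). For 16 of 21 all ETP arrays lay above the HSC arrays of their set, against 10% of all genes. The licensing factor Cdc6 (1.78), Gins1 (1.74), the ribonucleotide reductase subunit Rrm2 (1.66) and Mcm10 (1.39) were called higher, and 0 lower. These 4 called higher, of 21, compare with 3.7% of all genes. Without HSC arrays 1, 2, 4 and 5 the count was 10. Of 20 G1 cyclins, CDKs and CDK inhibitors, 1 was called higher and 2 lower (median 0.03), against 3.7% and 5.07% of all genes. Cdk6, the kinase that opens G1, rose by 2.40 ± 0.11, from 7.98 to 8.99 in HSC up to 10.77 to 11.05 in ETP. The inhibitors Cdkn1c, which encodes p57, and Cdkn1a, which encodes p21, fell by 2.41 (SE 0.11) and 2.33 (SE 0.32). Cdkn1a was 9.74 and 9.54 in LSK, above ETP by 3.20. Cdkn1b, which encodes p27, differed by -0.23 and was not called.

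**Figure D5:**
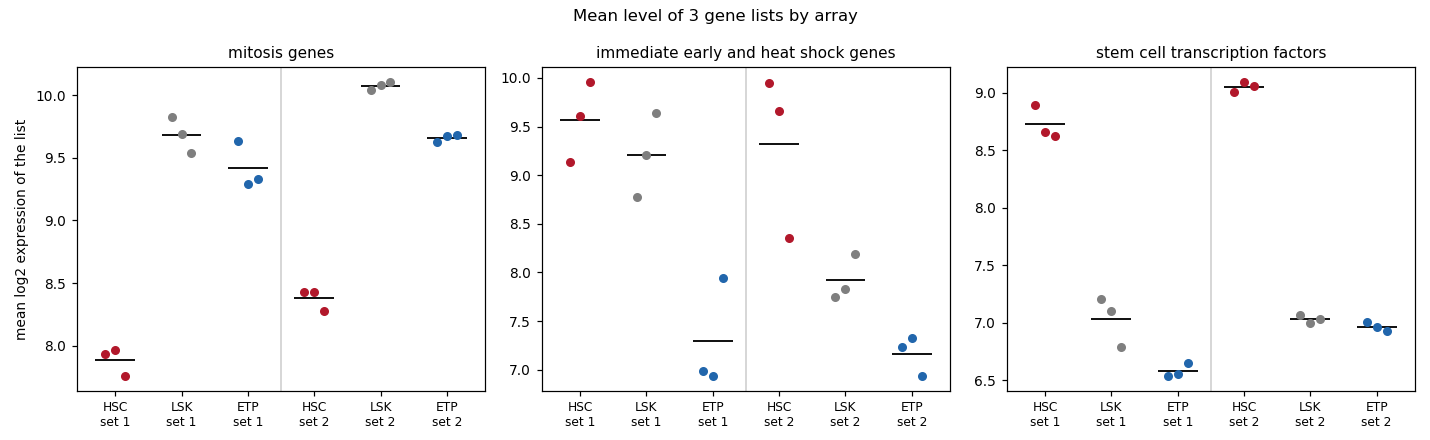
Points are the mean log2 level of a gene list on 1 array and bars the mean of 3 arrays, by population and set on the x axis, with a separate y axis range for each panel. Mitosis genes are low in HSC and high in LSK and ETP, immediate early and heat shock genes are high in set 1 LSK but lower in set 2 LSK, and stem cell transcription factors are high in HSC alone.

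Most metabolic and survival genes were not called. Of all genes, 3.7% were called higher and 5.07% lower. Of 15 glycolysis enzymes 3 were called lower and 0 higher (median -0.08). These were hexokinase Hk1 (-1.67), Aldoc (-1.51) and Pfkp (-1.11), while Pgk1 (0.70) and Ldha (0.22) were not called. Of 19 respiratory chain genes 3 were called higher and 0 lower (median 0.41), Uqcrq (1.29), cytochrome c (Cycs, 1.13) and Cox5a (1.05), and 19 of 19 differences were above 0. For 12 of 19 all ETP arrays lay above the HSC arrays of their set, against 10% of all genes. Uqcrq fell below 0 through its most variable probe set, at -0.49. Among 12 Bcl2 family genes, the survival factor Mcl1 was called lower (-1.21 ± 0.10, HSC 11.93 to 12.24 and ETP 10.77 to 11.06), and the death-promoting Bcl2l11 (1.37), which encodes Bim, and Bid (1.12) higher (median -0.07). Through the mean of their probe sets, Bcl2l11 (0.86) and Bid (0.84) were under the fold threshold. Bcl2 had a difference of -0.60. Of 8 fetal and neonatal genes, the RNA-binding protein gene Igf2bp3 rose by 1.92 ± 0.16 and Plagl1 and Igf2 fell, as given above (median 0.02). Igf2bp3 was 10.14 to 10.44 on set 2 ETP arrays and 8.68 and 9.27 on the adult ETP arrays, while Lin28b (0.11) and Hmga2 (0.00) were not called.

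Several of the largest changes lay outside the lists. Among risers were Cd244a (5.85), a receptor of killer cells and progenitors, Gfra1 (5.24), a GDNF receptor, Ankrd6 (5.02), Bex6 (4.96), Ifi209 (4.91) and the lipid transporter gene Atp8b4 (4.91). Gfra1 read 3.43 to 4.15 in HSC and 8.69 to 9.45 in ETP, with LSK at 8.70 and 9.17 and adult ETP lower, at 7.13 and 7.98. Ankrd6 read 4.57 to 6.47 in HSC and 10.65 to 10.92 in ETP, 1.62 above LSK. Among fallers were Myct1 (-5.66), Nr4a2 (-5.15) and the carrier gene Slc16a9 (-4.95). Myct1 read 9.47 to 10.22 in HSC and 3.85 to 4.38 in ETP. Nr4a2, an immediate early nuclear receptor, had HSC array 6 apart at 7.0 while the other 5 read 10.31 to 12.05.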

How the data were processed

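RNA was extracted with Trizol and amplified and labelled as biotin cDNA with NuGEN kits, per the labels' protocols. The authors deposited log2 values from RMA, per the submitters' processing notes. RMA subtracts background, quantile normalizes and condenses the probes of a set to 1 value. The version is not given in the sources used here, and the log base is not stated, so the values are read as log2 from their range. Arrays give no depth, so their number limits the precision.

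Of 45101 probe sets, 34945 name exactly 1 gene and were used; 932 naming several, 9160 naming none and 64 controls were not. Names come from GEO's platform annotation, checked against RefSeq, where 204 probe sets found no match and 0 symbols changed. limma 3.58.1 in R 4.3.3 (lmFit, eBayes) fitted 1 mean per population and set over all 36 arrays, with 24 residual degrees of freedom. The contrast was the mean of the 2 within-set differences, and p-values were adjusted over the 34945 probe sets. A gene was counted through its probe set with the highest mean over the 12 ETP and HSC arrays. Of the 91 genes chosen by the rule below, 57 had several probe sets, 48 had another called the same way and 0 the opposite way. The fit was tested on simulated data: it recovered 96% of 50 differences of 1.5 and 100% of those of 2, 3 and -2, with 1 false call. The simulated noise was normal with 1 spread per probe set for all arrays. It did not hold the greater noise of the HSC arrays or their single outlying arrays.

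The rule names the 12 largest rises and falls among calls with non-overlapping arrays, which separate by construction, the 3 largest called members of each list (with none called, the 2 of smallest p), markers, gate genes and the 4 probe sets that differed most surely between sets; other list members are named as examples. The members and the 27 lists (456 genes, 36 not analysed here) were chosen with earlier results of these data known. Promoters are RefSeq sequences of GRCm38.p6, 1 per gene. Tables used pandas 2.3.3 and numpy 2.4.6 in Python 3.11.15, and plots matplotlib 3.10.9.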

Additional observations from a re-analysis of the deposited data

Results flagged for a closer look

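For 18 of the genes described, the ETP to HSC difference was not the same in the 2 sets of arrays (interaction contrast in limma, adjusted over all probe sets, at least 2-fold). In all 18 the HSC level on arrays 4 to 6 was raised by more than the shift between sets seen in ETP. The ETP minus HSC difference was therefore lower in set 2. Set 2 minus set 1, the difference changed by -4.54 for Flt4, -4.40 for Abcc9, -3.74 for Mrc1, -3.73 for Cdh5, -3.48 for Gpm6a and -3.06 for Vcam1. It changed by -2.74 for Cd36, -2.65 for Kdr, -2.28 for Nid1, -2.24 for Cavin2, -2.24 for the imprinted gene Mest, -1.95 for Sox18, -1.86 for Cldn5, -1.86 for Stab2, -1.53 for Ptprb and -1.48 for Stab1. Most of these are genes of endothelium, and 11 are in the vessel list chosen after the values were seen. That list put its members among the genes described, so this overlap cannot show how far the differences between sets are endothelial. With the ETP and HSC arrays alone in the fit, only Flt4 and Vcam1 of the 18 passed. For the gate gene Cd48 the change was -2.68, from 7.59 to 4.90, with HSC array 5 at 7.47. For Ets1, a factor of lymphocytes and endothelium, it was -1.48, from 0.95 to -0.53, and the difference over both sets was not called.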

How the results depend on the processing

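The count of 1596 genes lay between 1193 and 1904 under the other scalings, set terms, filters and probe set rules, apart from the fold rule. Without a fold threshold 5031 genes passed (2745 higher, 2286 lower), and with limma's treat against 2-fold 570 did (196 and 374). Without probe sets of low mean, which leaves fewer genes tested, 614 were called lower. Leaving out 1 array gave 1561 to 1651 (638 to 722 higher, 899 to 963 lower). As choices made after seeing the data, leaving out HSC arrays 2 and 4 gave 1673, HSC arrays 1, 2, 4 and 5 1828, and set 1 alone 1790. The count for the difference between sets was 3 with the 12 arrays alone and 77 after quantile normalization, against 71. Same-numbered arrays did not deviate together (correlations -0.033 to 0.05), so the numbers were not taken as pairs; with the replicate number as a block 1525 genes were called, and Flt4 (adjusted p = 0.0693), Vcam1 (0.0578), Col1a1 (0.126) and Cd28 (0.114) lost their calls. Of the 89 called genes chosen by the rule, 60 were called under every alternative and 29 lost the call under at least one, 24 of them under treat. Uqcrq reversed, to -0.49, with the most variable probe set (adjusted p = 0.519; the cause was not tested). Without HSC arrays 1, 2, 4 and 5 the differences for S100a8, S100a9, Stfa3, Col1a1 and Slc4a1 were -0.09, -0.28, -0.04, -0.27 and -0.63. Those for Col1a2, Id3, Bcl2l11 and Cox5a were also weaker, at -1.29, -0.88, 0.92 and 0.99. Cd28, at adjusted p = 0.0488, was lost on leaving out any 1 of 9 arrays. In set 1 alone 13 calls ended, those for Abcc9, Flt4, Mrc1 and Vcam1 among them. The others were Bid (0.86), Id3 (-0.86), Myc (0.93), Cd28, Col1a1, S100a8, S100a9, Slc4a1 and Stfa3. HSC arrays were noisier than ETP arrays (array weights 0.569 to 0.833 against 1.25 to 2.29).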
